A study of Mus musculus with 8 samples.

Results

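The genes examined here encode the 3 protamines (Prm1, Prm2 and Prm3) and the transition proteins Tnp1 and Tnp2. They were chosen by gene symbol, as 5 of the 19906 genes in a table of testis RNA-seq, and all 5 had counts in every library. These genes and the lists set beside them were picked with earlier results of these data known. Counts of called genes among them are therefore descriptions only. Whole testes were taken from mice aged 2 months, 4 of them Tmem232-/- and 4 Tmem232+/+, and 1 library was made per mouse. The Tmem232-/- line was made by injecting C57BL/6 zygotes with Cas9 mRNA and guide RNAs, which removed a fragment running from intron 4 to intron 8 of Tmem232 as a constitutive deletion, and its males are infertile. Tmem232 codes for a transmembrane protein that is abundant in testis, and no other allele or treatment was stated for either group. The question here is how much transcript of the proteins that package the sperm genome the testes of each genotype held.

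In haploid spermatids the DNA is stripped of most of its histones while the nucleus elongates. Transition proteins, which are small and basic, take their place first and are themselves replaced by protamines, whose arginine-rich chains fold the DNA into a compact and silent form. The Prm and Tnp genes are transcribed in round spermatids, and their mRNAs are then held untranslated in ribonucleoprotein particles until elongation. Protamine 2 is made as a precursor and trimmed on the chromatin, whereas the product of Prm3 is an acidic protein found in the cytoplasm rather than on DNA.

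The 5 genes are small, and 4 of them lie together. In GRCm38, Tnp2 (Entrez ID 21959, chr16:10787935-10788655), Prm3 (19120, chr16:10790508-10790914), Prm2 (19119, chr16:10791377-10792105) and Prm1 (19118, chr16:10796332-10796823) follow each other on the minus strand of chromosome 16. Tnp1 (21958, chr1:73015074-73015899) lies on the minus strand of chromosome 1, where 1700027A15Rik overlaps it on the opposite strand. Whether the counting used strand was not stated, so reads of these overlapping genes may not be told apart. Prm3 has a single exon, and the other 4 have 2 exons each, joined across an intron of 92 bases in Prm1, 105 in Prm2, 171 in Tnp2 and 399 in Tnp1.

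The promoters are shown because many genes of haploid spermatids are switched on by CREM, a factor that binds cAMP response elements. Each sequence runs from 150 bases before to 50 bases after the start of the RefSeq gene in GRCm38.p6. Capitals mark matches, on either strand, to TGANNTCA (a loose form of the response element, of which the full element TGACGTCA is a special case), TATAAA or TATATA.
Prm1 (chr16:10796774-10796973, minus strand): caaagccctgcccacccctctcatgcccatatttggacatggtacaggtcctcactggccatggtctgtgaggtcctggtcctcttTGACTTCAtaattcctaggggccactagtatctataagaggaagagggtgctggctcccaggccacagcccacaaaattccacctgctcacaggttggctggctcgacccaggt
Prm3 (chr16:10790865-10791064, minus strand): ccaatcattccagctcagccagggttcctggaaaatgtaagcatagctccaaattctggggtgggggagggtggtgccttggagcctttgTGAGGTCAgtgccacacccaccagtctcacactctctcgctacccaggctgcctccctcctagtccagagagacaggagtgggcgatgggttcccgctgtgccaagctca
Tnp1 (chr1:73015850-73016049, minus strand): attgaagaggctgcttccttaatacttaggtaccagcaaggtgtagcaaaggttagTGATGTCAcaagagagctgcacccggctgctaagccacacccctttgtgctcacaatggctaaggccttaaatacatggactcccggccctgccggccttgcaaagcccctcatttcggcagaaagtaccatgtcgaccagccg
Prm2 (chr16:10792056-10792255, minus strand): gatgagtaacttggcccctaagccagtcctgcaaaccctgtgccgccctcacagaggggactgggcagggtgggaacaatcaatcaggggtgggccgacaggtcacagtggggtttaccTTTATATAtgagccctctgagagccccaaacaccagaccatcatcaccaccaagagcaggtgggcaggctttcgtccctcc
Tnp2 (chr16:10788606-10788805, minus strand): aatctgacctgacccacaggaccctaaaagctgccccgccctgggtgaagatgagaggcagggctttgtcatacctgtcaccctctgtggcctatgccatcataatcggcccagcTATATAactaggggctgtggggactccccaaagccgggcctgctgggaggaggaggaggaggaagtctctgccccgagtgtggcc
TGANNTCA was found upstream of 3 of the 5 genes, as TGACTTCA in Prm1, TGAGGTCA in Prm3 and TGATGTCA in Tnp1. It occurred in 14.1% of the 32851 promoters searched, each of 300 bases, and the full TGACGTCA in 1.79% of them and in none of the 5. TATATA occurred in Prm2 and Tnp2 and in 5.67% of all promoters. TATAAA occurred in Prm2 alone among the 5, on the strand opposite to the one printed and overlapping the TATATA, and in 13.6% of all promoters. These matches describe the letters of the window and were not tested for binding.

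Library totals lay between 15428421 and 16350871 counts, and the smallest count of any of the 5 genes in a library was 27. A level is a number of counts in each 1000000 of the library (CPM), scaled by TMM. Differences were tested by the quasi-likelihood method of edgeR, with Benjamini-Hochberg adjusted p-values over 15787 tested genes. The targeted gene was examined first. Tmem232 had 147.6, 131.6, 123.1 and 122.1 CPM with the Tmem232-/- label (replicates 1 to 4) and 111.2, 106.3, 108.4 and 109.9 CPM with the Tmem232+/+ label. It was thus higher, not lower, in the libraries labelled Tmem232-/- (log2 fold change 0.27, SE 0.07, adjusted p = 0.0335). Its count is a single value for the whole gene, exons outside the deleted fragment included, so it does not check the labels, and each direction below is that of the libraries as labelled. Leaving out any of 4 single libraries, replicates 1 and 2 of the Tmem232-/- label and replicates 2 and 4 of the Tmem232+/+ label, ended that call (adjusted p from 0.0858 to 0.0892).

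All 5 genes rose in the libraries labelled Tmem232-/- at an adjusted p under 0.05, where 10.3% of all tested genes rose and 1.46% fell. In each of the 5, all 4 libraries labelled Tmem232-/- lay above all 4 labelled Tmem232+/+, a separation in this direction that 11.8% of the tested genes showed. Prm1, Prm2, Tnp1 and Tnp2 rose between 11.7-fold and 21.8-fold and Prm3 rose 2.42-fold. The median log2 fold change was 3.86 over the 5 genes and -0.054 over all tested genes. No member passed the filter on low counts through 1 genotype alone, since all 5 also stayed in the test when 10 counts were required in every library. Whole testis was sequenced, so a change in the number of cells that hold a transcript and a change in the amount of it per cell cannot be told apart.

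**Figure D1:**
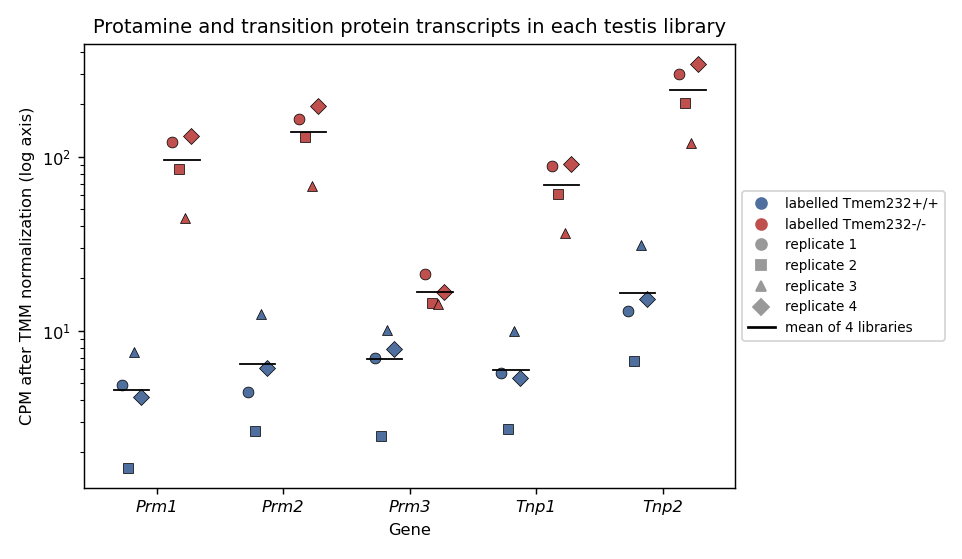
Level of each gene in every library, in CPM on a log axis, with 1 point per library, the marker shape giving the replicate number and the line the mean of 4 libraries. All red points (labelled Tmem232-/-) lie above all blue points (labelled Tmem232+/+) in each gene, with the narrowest gap in Prm3.

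Among the protamines, Prm1 encodes the protamine that is deposited in its mature form. Prm1 had 1835, 1360, 700 and 2144 counts in replicates 1 to 4 with the Tmem232-/- label, which are 122.1, 85.4, 44.3 and 131.8 CPM. The libraries labelled Tmem232+/+ had 78, 27, 119 and 68 counts of Prm1, or 4.86, 1.64, 7.54 and 4.18 CPM. The lowest of the first group was still 5.88 times the highest of the second. The mean was 95.9 ± 39.8 CPM against 4.55 ± 2.43 CPM (SD, n = 4 each), which is 4.40 as a log2 fold change (SE 0.41, adjusted p = 4.23e-05). An exact permutation test of CPM over the 70 arrangements of the 8 libraries, two-sided, gave p = 0.029, the smallest it can give, for Prm1 and for each of the other 4 genes.

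Prm2, the protamine that is cut from a precursor, followed the same library order among those labelled Tmem232-/-. It had 164.8, 129.8, 67.9 and 196.3 CPM in these and 4.42, 2.66, 12.5 and 6.14 CPM in replicates 1 to 4 with the Tmem232+/+ label. Replicate 3 was the lowest of the first group and the highest of the second, and the gap between them was still 5.41-fold. The means were 139.7 ± 55.0 CPM and 6.44 ± 4.31 CPM (SD, n = 4 each), with a log2 fold change of 4.44 (SE 0.43, adjusted p = 4.81e-05). Prm2 ranked 9 and Prm1 ranked 11 by log2 fold change among all tested genes.

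Prm3 stood apart from the other 4 genes in size. Its CPM was 21.3, 14.4, 14.2 and 16.6 in libraries with the Tmem232-/- label and 6.98, 2.48, 10.1 and 7.86 in libraries with the Tmem232+/+ label. The groups did not overlap, but the lowest library of one was only 1.404 times the highest of the other. The means were 16.6 ± 3.30 CPM and 6.86 ± 3.21 CPM (SD, n = 4 each), and the log2 fold change of 1.28 (SE 0.31, adjusted p = 0.0172) ranked 526. Without replicate 1 labelled Tmem232-/-, its highest library, the log2 fold change was 1.14 and the call was lost (adjusted p = 0.0586).

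Tnp1 and Tnp2 encode the proteins that bridge the histone and protamine stages. Tnp1 had 1322, 979, 580 and 1474 counts in the libraries labelled Tmem232-/- against 92, 45, 158 and 87 counts in the others, with means of 69.2 ± 25.4 CPM and 5.95 ± 3.02 CPM (SD, n = 4 each). The log2 fold change of Tnp1 was 3.54 (SE 0.36, adjusted p = 6.3e-05), the smaller of the increases in the transition proteins. Tnp2 is the larger and less conserved of the transition proteins, and it had the most counts of the 5 genes in every library. Its CPM was 297.4, 204.7, 120.2 and 340.9 in replicates 1 to 4 with the Tmem232-/- label and 13.1, 6.72, 31.3 and 15.3 in replicates 1 to 4 with the Tmem232+/+ label. The log2 fold change of Tnp2 was 3.86 (SE 0.43, adjusted p = 0.000115), and the nearest libraries of the 2 groups were 3.84-fold apart.

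The spread within a genotype was wide and shared by the genes. Among libraries labelled Tmem232-/-, replicate 3 was the lowest in all 5 genes, and replicate 4 was the highest in Prm1, Prm2, Tnp1 and Tnp2, with replicate 1 highest in Prm3. The highest of these libraries exceeded the lowest by 2.98 times in Prm1, 2.89 in Prm2, 2.84 in Tnp2, 2.47 in Tnp1 and 1.497 in Prm3. Among libraries labelled Tmem232+/+, replicate 3 was the highest and replicate 2 the lowest in all 5 genes, with ratios between 3.67 in Tnp1 and 4.71 in Prm2. Summed over the 5 genes, the libraries labelled Tmem232-/- held 693.6, 495.7, 283.2 and 776.2 CPM and those labelled Tmem232+/+ held 35.1, 16.2, 71.5 and 38.8 CPM.

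Levels of different genes were compared per length, in deposited values whose unit the file does not name and which were read as FPKM from their relation to the counts. In each library labelled Tmem232-/- the order was Tnp2, Prm1, Prm2, Tnp1 and Prm3, with means of 629.7 ± 254.0, 412.5 ± 165.5, 305.8 ± 120.1, 267.1 ± 94.4 and 69.6 ± 12.6 FPKM (SD, n = 4). Adjacent genes in this order overlapped across libraries, except that Prm3 lay below the other 4 genes throughout. The order of Prm1 and Prm2 depends on the length used. The lengths implied by these values were 228 bases for Prm1 and 450 for Prm2, while their GENCODE transcripts have 469 and 621 bases. In CPM, without a length, Prm2 lay above Prm1 in each library labelled Tmem232-/-. Tnp2 was between the 37th and 194th most abundant gene of the table in these libraries, and between the 1360th and 5212th in libraries with the Tmem232+/+ label. There Tnp2 had 44.5 ± 28.2 FPKM and was again the highest of the 5 genes in each library, and the next was Prm3 with 29.4 ± 13.7 FPKM in 3 of 4 libraries. Tnp1 (23.6 ± 11.9 FPKM), Prm1 (20.1 ± 10.6 FPKM) and Prm2 (14.5 ± 9.76 FPKM) followed in that order of means, and all of these ranges overlapped (SD, n = 4). The place of Prm3 therefore differed, from last of the 5 genes to second by mean.

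As a share of the summed FPKM of the 5 genes, Prm3 had 22.7% ± 3.58 under the Tmem232+/+ label and 4.58% ± 1.71 under the Tmem232-/- label (SD, n = 4). Prm1 had 15.2% ± 1.90 and 24.2% ± 1.26 in the same order, and Prm2 had 10.7% ± 1.68 and 18.1% ± 0.941. The shares of Tnp1 (16.5% to 20.6% and 15.1% to 16.6%) and Tnp2 (33.1% ± 3.08 and 37.1% ± 1.24) lay closer together, and their ranges over libraries overlapped. Prm1, Prm2 and Prm3 did not overlap between genotypes in this share.

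**Figure D2:**
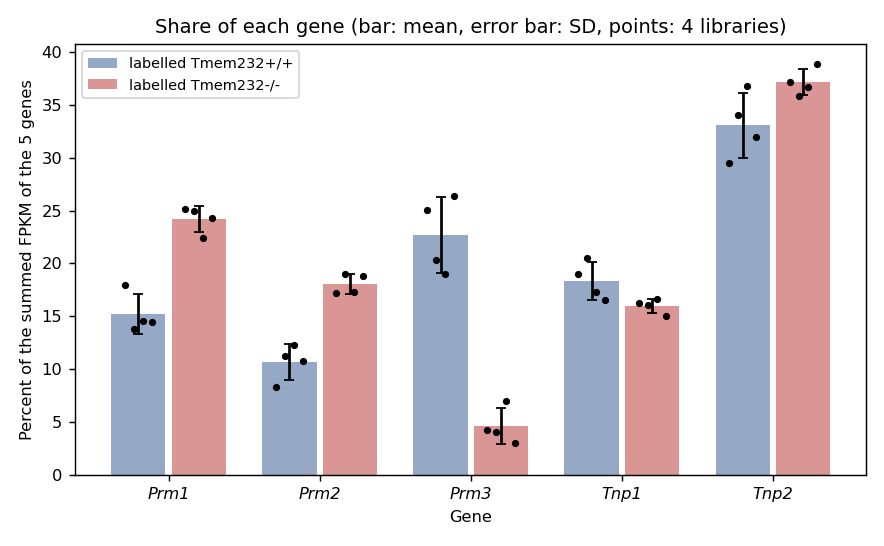
Percent of the summed FPKM of the 5 genes that each gene held, with bars for the mean of 4 libraries, error bars for the SD and points for single libraries. Prm3 holds 22.7% in the blue bar (labelled Tmem232+/+) and 4.58% in the red bar (labelled Tmem232-/-), and Prm1 and Prm2 hold larger shares in the red bars.

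Ratios of 2 genes within a library do not depend on how libraries are scaled, and 4 such ratios were tested on the log2 scale, with 0.5 count added to each gene. Prm2 to Prm1 compares the transcripts of the protamines that bind DNA, as counts without a length, and no protein was measured in these libraries. It was 1.35, 1.52, 1.53 and 1.49 in replicates 1 to 4 with the Tmem232-/- label and 0.911, 1.62, 1.66 and 1.47 in replicates 1 to 4 with the Tmem232+/+ label. The groups overlapped, and the mean log2 ratios of 0.56 ± 0.08 and 0.46 ± 0.40 (SD, n = 4) differed by 0.10 (exact permutation test, two-sided, p = 0.914).

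Prm3 to Prm1 was 0.175, 0.169, 0.322 and 0.126 in libraries with the Tmem232-/- label and 1.43, 1.51, 1.34 and 1.88 in the others. Prm1 thus outnumbered Prm3 in counts in the first group and not in the second, and the log2 ratio differed by -3.04 (exact permutation test, two-sided, p = 0.029, adjusted over the 4 ratios 0.038). The log2 ratio of Tnp1 to Prm1 lay between -0.54 and -0.27 for the Tmem232-/- label and between 0.24 and 0.73 for the Tmem232+/+ label, a difference of -0.87 with the same exact p. Tnp2 to Tnp1 lay between 3.27 and 3.76 and between 2.28 and 3.12 in the same order, a log2 difference of 0.37, again with the smallest exact p of 0.029. With any single library labelled Tmem232-/- left out, the adjusted exact p was 0.0571 for both ratios to Prm1 and 0.0762 for Tnp2 to Tnp1, while the log2 differences lay between -3.30 and -2.85 (Prm3 to Prm1), -0.93 and -0.84 (Tnp1 to Prm1) and 0.33 and 0.39 (Tnp2 to Tnp1). With any single library labelled Tmem232+/+ left out, it stayed at 0.0381 for these 3 ratios.

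The genes whose levels across the 8 libraries were most like those of each member were found by the root mean square distance between centred log2 CPM, over 15062 genes with a mean of at least 1 CPM. A prior count of 2 was added before the log2, which shrinks the differences of scarce genes. This distance is a description in which the genotype difference weighs most. Prm1 and Prm2 were each other's nearest gene, at a distance of 0.253. Next to Prm1 came Trim42 (0.296), Tnp2 (0.297), Fam71a (0.326) and 4931408C20Rik (0.331). Prm2 was followed by Tnp2 (0.303), Trim42 (0.305), Fscn3 (0.356), a fascin of spermatids, and 4931408C20Rik (0.362).

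Tnp2 was nearest to Fscn3 (0.187), Trim42 (0.227), Fam71a (0.230), Tnp1 (0.238) and 1700012A03Rik (0.249). The nearest genes to Tnp1 were Prss51 (0.173), Fam71b (0.177), Prss37 (0.182), Gm5767 (0.208) and Tnp2 (0.238), of which Prss51 and Prss37 belong to the trypsin-like protease family. Prm3 had no member among its 5 nearest genes, which were Gm10057 (0.161), Trem1 (0.199), 1700001P01Rik (0.216), Vmn2r5 (0.219) and Cd96 (0.222). Its distance from the other 4 genes lay between 1.13 for Tnp1 and 1.62 for Prm2, while those 4 genes were between 0.238 and 0.521 apart. Several of these like genes were scarce, with mean levels of 0.297 CPM for Trim42 and 0.142 CPM for Prss51 in the libraries labelled Tmem232+/+. Such genes reached a mean of 1 CPM only through the libraries labelled Tmem232-/-. The fitted log2 fold change of Prss51 was 4.31, beside 3.54 for Tnp1, so its place as nearest may depend on the count added.

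Genes beside the members were examined as the 3 nearest of the table on each side of the cluster and of Tnp1, and 10 of these 12 had counts enough to be tested. Socs1, an inhibitor of cytokine signalling that ends 2399 bases from Tnp2, had a log2 fold change of -0.18 (adjusted p = 0.595). On the other flank, 38236 bases from Prm1, Rmi2 of the BLM helicase complex had -0.19 (adjusted p = 0.373). Clec16a (0.09), Litaf (-0.23), Dexi (-0.28), Rpl37a (-0.18), Igfbp2 (-0.07) and Igfbp5 (-0.33) were not called either. Snn, 269475 bases from the cluster, rose with a log2 fold change of 0.79 (SE 0.19, adjusted p = 0.019). Tns1, a focal adhesion protein gene 894333 bases from Tnp1, rose with 0.72 (SE 0.09, adjusted p = 0.000228). The call of Snn was lost without replicate 1 of the Tmem232-/- label (adjusted p = 0.0598) and without replicate 4 of the Tmem232+/+ label (adjusted p = 0.0547). Of the 10 neighbours, 2 thus passed in this direction, beside 10.3% of all tested genes, and 10 genes are too few to compare these shares. Prm3 lies between Tnp2 and Prm2 with the smallest increase of the cluster.

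**Figure D3:**
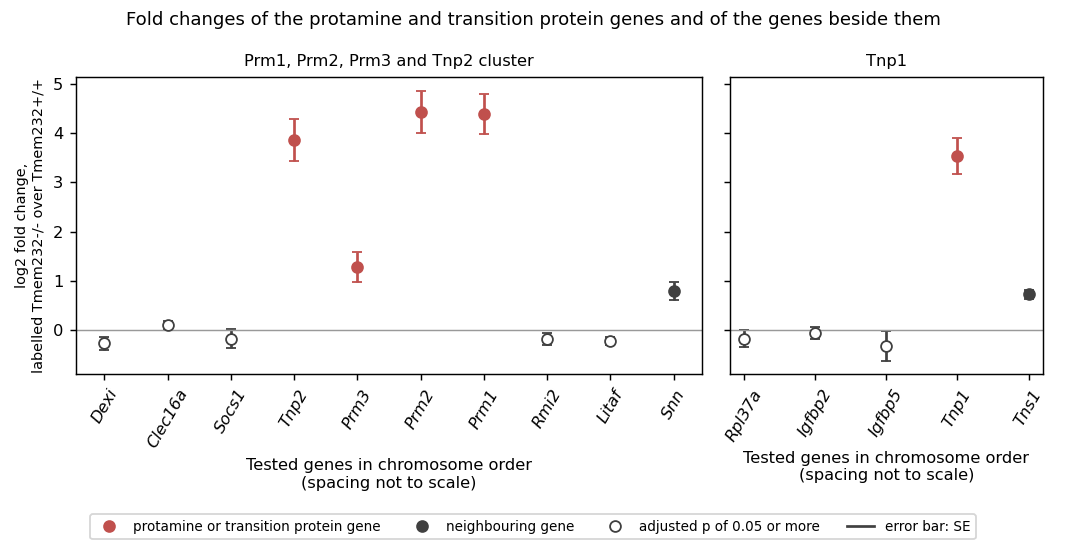
Log2 fold change with its SE for the tested genes around the cluster (left) and around Tnp1 (right), in chromosome order without scale, filled where the adjusted p was under 0.05. The 5 members lie between 1.28 and 4.44, and the genes beside them between -0.33 and 0.79.

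Factors of the exchange from histones to protamines were taken from a list, of which 42 genes are reported here and 39 had counts enough to be tested. Of these 39, 11 rose and 0 fell by edgeR, where 10.3% and 1.46% of all tested genes did. At an unadjusted p under 0.05, 11 of them were higher and 3 lower, and DESeq2 called 11 higher and 0 lower. Over all genes, 14.6% were higher and 10.5% lower at an unadjusted p under 0.05 by edgeR, and DESeq2 called 10.3% higher and 1.25% lower of the 17560 genes to which it gave an adjusted p. The median log2 fold change was 0.07, beside -0.054 over all tested genes. The genes that rose included Tssk6 (2.69), a testis kinase, and the linker histone genes H1fnt (2.05) and Hils1 (1.49). Hmgb4 (2.00), an HMG box protein of germ cells, rose as well, and so did H2al2a (2.64) and H2al1a (1.65), histone H2A variants that belong to a family of near-identical copies and whose counts are uncertain for that reason. Without replicate 3 of the Tmem232+/+ label, H2al2a had 3.35. Camk4, a kinase that can phosphorylate Prm2, rose with 1.53, which was 0.60 on the scale of log2 FPKM plus 1. The chromodomain genes Cdyl and Chd5 rose with 1.37 and 1.36, Nutm1 of the histone acetylation step with 0.59, and Usp7, a deubiquitinase, with 0.31. Each of these increases was smaller than that of Prm1, Prm2, Tnp1 or Tnp2. The testis histone genes Hist1h2ba and Hist1h2aa and the variant H2afb1 were not tested, with no level above 0.872 CPM.

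Of the other remodelling factors, Brdt, a reader of acetylated histones in testis, had a log2 fold change of 0.16 (adjusted p = 0.378), and its groups overlapped. Rnf8, a ubiquitin ligase for histones, had -0.23 (adjusted p = 0.0831), and its groups did not overlap. Psme4, the proteasome activator that degrades acetylated histones, had 0.33 (adjusted p = 0.366), and its groups overlapped. The call of Usp7 was lost without replicate 1, 2 or 3 of the Tmem232-/- label or replicate 4 of the Tmem232+/+ label (adjusted p between 0.06 and 0.0799). Rnf8 passed without replicate 1 of the Tmem232-/- label (adjusted p = 0.0444).

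Regulators of the Prm and Tnp genes were taken from a list of 39, all of them tested, of which 6 rose and none fell, where 10.3% and 1.46% of all tested genes did. The median log2 fold change was 0.04. At an unadjusted p under 0.05, 10 were higher and 2 lower, where 14.6% and 10.5% of all tested genes were, and DESeq2 called 8 higher and 0 lower, where it called 10.3% and 1.25% of all genes. Of 15 regulators of transcription, Fhl5 (2.08), the coactivator of CREM, and Kif17 (1.08), a kinesin that carries this coactivator, rose along with Sox5 (1.05) and Sox30 (0.48). Crem itself had 233.3, 197.1, 182.1 and 190.5 CPM in replicates 1 to 4 with the Tmem232-/- label and 171.2, 148.9, 180.3 and 159.2 CPM in replicates 1 to 4 with the Tmem232+/+ label. These groups did not overlap, and the log2 fold change of 0.28 did not pass the threshold (SE 0.09, adjusted p = 0.0716), though it did with DESeq2 (adjusted p = 0.0222), without a filter on low counts (adjusted p = 0.0348) and without replicate 3 of the Tmem232+/+ label (adjusted p = 0.0196).

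Of 24 genes that act on mRNA storage, translation or stability, Samd4 (1.71), which binds stem-loops in mRNA, and Zfp239 (0.56) rose. These 2 of 24 stand beside 10.3% of all tested genes, and so are near the background. The call of Zfp239 (adjusted p = 0.0458) was lost under 11 of the 18 alternative settings, among them the omission of any library but replicate 4 of the Tmem232+/+ label (adjusted p between 0.0509 and 0.111). Ybx2, which binds and stores Prm mRNAs, had -0.11 (adjusted p = 0.581), and Tarbp2, needed for their translation, had -0.17 (adjusted p = 0.272).

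**Figure D4:**
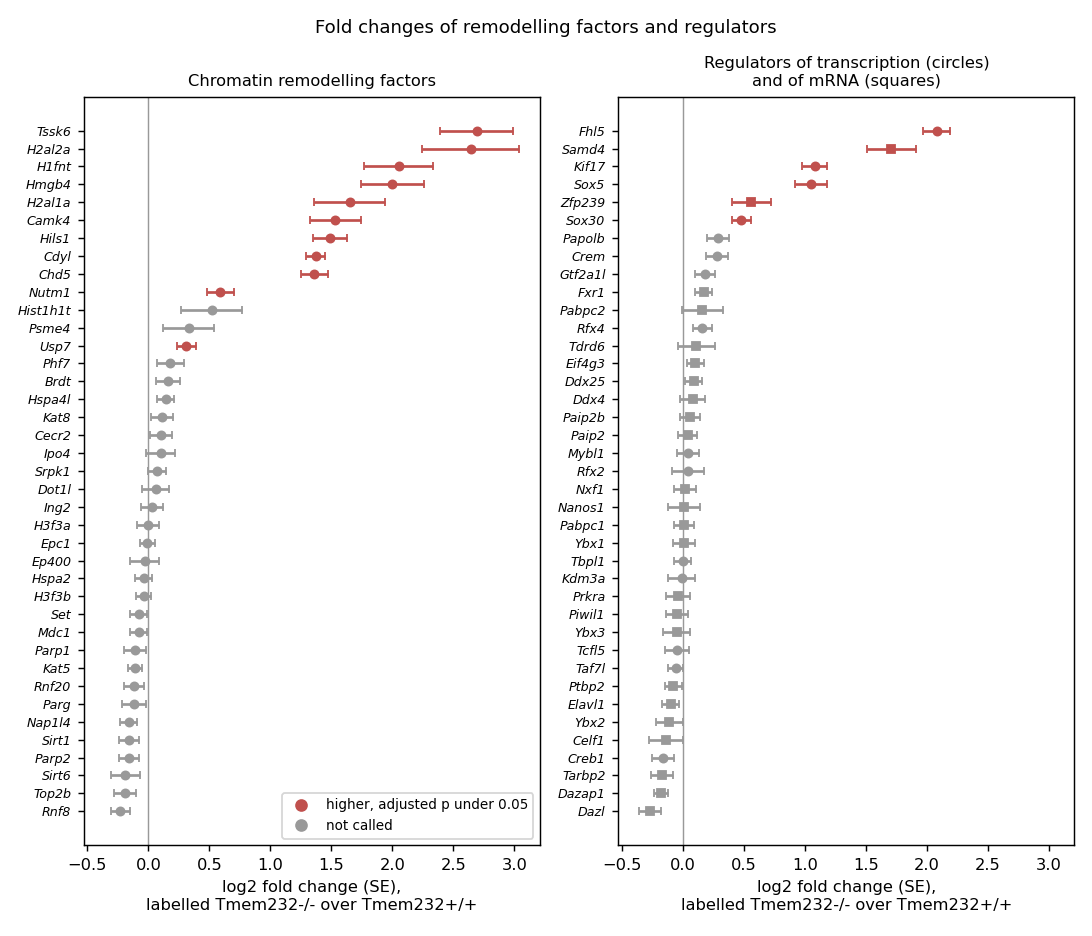
Log2 fold change with its SE of the tested remodelling factors (left) and of the regulators of transcription (circles) and mRNA (squares, right), coloured where the adjusted p was under 0.05. Points reach 2.69 (Tssk6) and 2.08 (Fhl5) and most of the others lie near 0.

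Markers of testis cell types, the spermatids that hold Prm and Tnp transcripts included, were set beside these results, since testis is a mixture. Of 13 markers of elongating spermatids, 11 rose, beside 10.3% of all tested genes. Their median log2 fold change was 1.38, and their summed level lay between 2816 and 3765 CPM in libraries with the Tmem232-/- label and between 1502 and 2444 CPM in the others. Of 12 markers of round spermatids, 11 rose, with a median of 1.07 and sums between 959.7 and 1173 CPM against 536.8 and 656.3 CPM. None of these 25 markers was at 0 in any library. Among libraries labelled Tmem232-/-, the sum of the 5 genes was highest in replicate 4 and lowest in replicate 3. The sum of elongating spermatid markers was highest in replicate 1 and lowest in replicate 3, and that of round spermatid markers was highest in replicate 1 and lowest in replicate 4. Among libraries labelled Tmem232+/+, all 3 sums were highest in replicate 3 and lowest in replicate 2. The part of these shifts in the increase of the Prm and Tnp genes was not tested. Prm1 and Prm2 exceeded all 25 markers in log2 fold change, Tnp1 and Tnp2 exceeded all but Fscn3 (3.97), and Prm3 (1.28) lay below the median of the elongating spermatid markers.

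**Figure D5:**
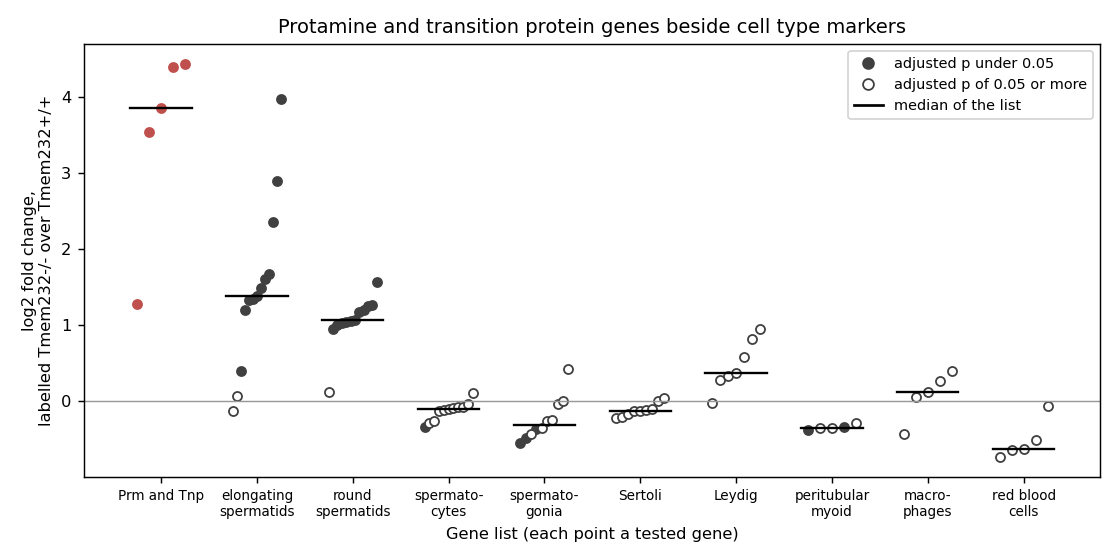
Log2 fold change of the 5 genes (red) beside the tested markers of 9 cell types, with 1 point per gene, filled where the adjusted p was under 0.05, and a line at the median of each list. The medians are 3.86 for the 5 genes, 1.38 and 1.07 for elongating and round spermatids, and between -0.63 and 0.37 for the other cell types.

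No other marker list had a gene called higher by edgeR. None of 11 spermatocyte markers rose and 1 fell (median log2 fold change -0.10), and of 10 spermatogonia markers none rose and 3 fell (median -0.30), where 1.46% of all tested genes fell. By edgeR at an unadjusted p under 0.05, 0 spermatocyte markers were higher and 3 lower, and 1 spermatogonia marker was higher and 6 lower, where 14.6% of all tested genes were higher and 10.5% lower. DESeq2 called 0 of either list higher, and it called 1 spermatocyte and 3 spermatogonia markers lower. Over all genes, DESeq2 called 10.3% higher and 1.25% lower. None of 9 Sertoli cell, 7 Leydig cell, 5 macrophage or 5 red blood cell markers was called in either direction, though at an unadjusted p under 0.05 the Leydig markers had 5 higher and the Sertoli markers 1 lower, and DESeq2 called 2 Leydig markers higher. The macrophage and red blood cell markers had 0 in either direction by both measures. Of 5 markers of peritubular myoid cells, 2 fell (median -0.35), and 0 were higher and 4 lower at an unadjusted p under 0.05, and DESeq2 called 0 higher and 2 lower. These counts of lower markers changed when single libraries were left out. The spermatocyte call was lost without replicate 2 of the Tmem232-/- label and without replicate 2 or 4 of the Tmem232+/+ label. Without replicate 1 of the Tmem232+/+ label, 0 spermatogonia and 0 myoid markers were lower. Spermatogonia markers numbered 1 without replicate 1 or 2 of the Tmem232-/- label or replicate 2 or 3 of the Tmem232+/+ label, and myoid markers numbered 1 without replicate 1 or 3 of the Tmem232-/- label.

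Epididymis, which stores sperm and may be dissected with the testis, was followed through Crisp1, Adam7, Lcn5 and Defb2, which are the 4 of 6 listed markers in the table. Their sum was 6.19, 0.0628, 0 and 1.05 CPM in replicates 1 to 4 with the Tmem232-/- label and 31.8, 0, 11.2 and 0.0614 CPM in replicates 1 to 4 with the Tmem232+/+ label. The 5 genes summed to 693.6, 495.7, 283.2 and 776.2 CPM and to 35.1, 16.2, 71.5 and 38.8 CPM in the same libraries. The part of epididymal tissue in the difference between genotypes was not tested.

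Transcript length was described because the 5 genes are short, with lengths between 228 and 450 bases implied by the deposited FPKM and counts. Such a length could be implied for 14189 of the 15787 tested genes (89.9%), those with an FPKM of at least 1 in some library. Genes without a length are in no class. Of 673 tested genes of up to 600 bases, 20.2% were called higher, against 18.4% of the next class up to 1000 bases. The share was 11.2% in the class up to 2000, 9.51% in that up to 4000 and 7.94% of genes above 4000. A log2 fold change of 3 or more was reached by 61 of all tested genes and by 15 of those of up to 600 bases, Prm1, Prm2, Tnp1 and Tnp2 included. The median log2 fold change was -0.04 in the shortest class and -0.05 in the longest. Fragment lengths implied by the files lay between 173.1 and 192.5 bases in libraries with the Tmem232-/- label and between 181.5 and 190.2 bases in the others, so these ranges overlapped. The part of length in the increase of the 5 genes was not tested.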

How the data were processed

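Total RNA of 8 testes was made into libraries with a TruSeq RNA kit and sequenced in pairs of reads. According to the submitters' processing notes and the methods of the study, the authors mapped reads to GRCm38.p6 with HISAT and Bowtie2, counted them with StringTie and featureCounts and compared genotypes with DESeq2. Versions and the use of strand were not given in the sources used here. The authors deposited estimated counts without normalization, some of them not whole, and these were rounded here. The authors also deposited a second value per library without naming its unit, which was read here as FPKM because it followed the count divided by the library total and by a length. That length was shorter by about the fragment length, so that values of short genes depend on it. Columns of the authors' group means, fold changes, p-values and q-values were not used.

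Counts were analysed in R 4.3.3 with edgeR 4.0.16 (default filter on low counts, TMM, quasi-likelihood test, no covariate, Benjamini-Hochberg adjustment over 15787 genes). The labels name each library as a separate sample, and nothing further was stated on litters or batches. Single values and ratios were compared by an exact permutation test over 70 arrangements, two-sided, in Python 3.11.15 (scipy 1.17.1, numpy 2.4.6, pandas 2.3.3). Alternatives were DESeq2 1.42.0, other scalings and filters, limma-voom from limma 3.58.1, log2 of FPKM plus 1 or 0.1 with limma, a block for the replicate number, and fits without each single library. The gene-level fits were tested on simulated counts, with changes smaller than those of Prm1, Prm2, Tnp1 and Tnp2. Precision is limited by 4 libraries per genotype and, for the scarcer values, by counting error.

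The members, the lists of remodelling factors, regulators and markers and the alternatives were chosen with earlier results of these data known. Genes named are the 5 members, Tmem232, up to 10 called genes per list and direction, Crem, Ybx2, Tarbp2, Brdt, Chd5, Rnf8, Psme4 and Camk4 whatever their value, the nearest genes on each side, and the 5 genes most like each member. Other genes were named after their values were seen. A gene of the list of remodelling factors is not reported here and was left out of its counts. Promoters and gene positions were taken from RefSeq and exons from GENCODE, both for GRCm38, and all 5 members matched by symbol.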

Additional observations from a re-analysis of the deposited data

Results flagged for a closer look

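Each group of 4 libraries was examined for a library far from the other 3 (a gap past Dixon's critical value for 4 values), and 6 of 100 groups had one, where about 5 would by chance. None of them was in a level or ratio of the 5 genes themselves. Replicate 3 labelled Tmem232-/-, the lowest of its group in all 5 genes, was also far below its group in the histone variants H2al2a, with 9.55 CPM, and H2al1a, with 8.16 CPM. Replicate 1 labelled Tmem232-/- stood above its group in the sum of the epididymis markers, at 6.19 CPM. Among the libraries labelled Tmem232+/+, replicate 3, the highest in all 5 genes, stood below the others in the sum of the red blood cell markers, at 304.6 CPM. Replicate 2, the lowest in all 5 genes, stood below the others in the sum of the neighbouring genes, at 427.5 CPM, and replicate 1 stood above them in the sum of the regulators of transcription, at 3140 CPM.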

How the results depend on the processing

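The increases of Prm1 (log2 fold change between 4.12 and 4.78), Prm2 (4.18 to 5.01), Tnp1 (3.30 to 3.94) and Tnp2 (3.60 to 4.39) kept their direction and passed the threshold under all 18 alternatives. Prm3 (1.00 to 1.56 over single libraries left out) failed in 1 of 18, without replicate 1 labelled Tmem232-/-, where 4 of the 5 genes were called. Tmem232 lay between 0.21 and 0.32 without single libraries. Replicate numbers did not pair the libraries (correlations of same-numbered libraries -0.061, 0.072, -0.332 and -0.105). With the number as a replicate block, Tmem232 had 0.26 (adjusted p = 0.114), 28 genes were lower in place of 230, and the log2 ratios of -3.04 for Prm3 to Prm1, 0.37 for Tnp2 to Tnp1 and -0.87 for Tnp1 to Prm1 had an adjusted exact p of 0.167, where 4 pairs allow no p below 0.125. The block also ended the calls of Usp7 and Zfp239 and no call of a Prm or Tnp gene. The number of lower genes was 131 with DESeq2's size factors, 415 with library size alone, 71 without a filter, 466 and 448 with FPKM plus 1 and plus 0.1, and 37 (without replicate 1 labelled Tmem232+/+) to 356 (without replicate 4 labelled Tmem232-/-) when single libraries were left out. Lower remodelling factors numbered 1 (Rnf8) with library size alone and with both FPKM scales, and 0 to 1 without single libraries. Lower regulators numbered 1 (Dazap1) with library size alone and with both FPKM scales, and higher neighbours 1 to 2 without single libraries. Without single libraries the ratios ranged from -3.30 to -2.85 (Prm3 to Prm1), 0.30 to 0.45 (Tnp2 to Tnp1), -0.94 to -0.77 (Tnp1 to Prm1) and -0.10 to 0.19 (Prm2 to Prm1), the last turning negative without replicate 1 labelled Tmem232+/+. Of 25 named list genes (those called and those named whatever their value), examined under the same settings after their values were seen, 24 kept their sign and Ybx2 changed it (-0.17 to 0.04 without single libraries, above 0 without replicate 3 labelled Tmem232+/+). The causes were not tested. In all, 550 of 598 alternative fold changes and ratios kept their direction and their side of the threshold, and 197 of 234 alternative counts of called genes were within 1.5 times the reported count. Among these, counts of markers were examined after their values were seen. Elongating spermatid markers called higher numbered 10 to 11 and those of round spermatids 11 throughout, and with the replicate block 0 spermatocyte, 1 spermatogonia and 1 peritubular myoid marker were lower, and 1 spermatogonia marker without a filter. Counts of 27 to 119 limit the precision of Prm1 in the libraries labelled Tmem232+/+.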

Other observations

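By the deposited FPKM, the libraries labelled Tmem232+/+ placed the Prm and Tnp genes, whose mRNAs are known as abundant in adult testis, far from the top of the 19906 genes. Prm1 ranked between 3411 and 8481 there and between 93 and 429 in the libraries labelled Tmem232-/-. Prm2 ranked between 3876 and 9128 in the former and between 145 and 603 in the latter. Tnp1 ranked between 2939 and 7077 and between 213 and 634 in the same order, and Prm3 between 2690 and 7114 and between 1287 and 1881. These ranks are given as values, and what sets them was not tested.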
